A study of Mus musculus with 8 samples.

Results

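The data compared here are the cells of the tumour-free brain of WT and Acod1 KO mice, taken from a Drop-seq study of 8 libraries in which a glioma of GL261 cells was followed in both genotypes. The naive libraries are 1 WT library (genotype Irg1/Acod1 +/+) and 1 KO library (Irg1/Acod1 -/-), both untreated, of strain C57BL/6 in the labels (C57BL/6N in the methods of the study) and from a brain single-cell suspension, with 2 animals named in the title of each. Cells were the 1000 barcodes with the most unique molecular identifiers (UMIs, 1 per captured transcript molecule) in each library that held at least 1000 genes, and this gave 454 cells in WT naive and 454 in KO naive, 908 of 5698 cells in the 8 libraries. Each cell was put into the class whose 3 markers had the highest summed UMIs, namely microglia (P2ry12, Siglech, Cx3cr1), astrocytes (Slc1a2, Aqp4, Gja1), endothelial cells (Cldn5, Flt1, Ly6c1) or oligodendrocytes (Mobp, Mog, Mag). The KO allele is an insertion cassette carried in every cell of the animal, the WT animals were age-matched littermates, and the suspension was passed over myelin-removal beads, per the methods of the study. The labels give neither age nor sex. With 1 library per genotype there is no replicate and no test: all intervals below are 95% intervals for counting error only (exact Poisson for CPM, exact binomial for shares and ratios), and a difference between the genotypes cannot be told apart from one between the 2 pools of animals or between the preparations.

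Acod1 encodes the enzyme that makes itaconate from the citric acid cycle intermediate cis-aconitate, and it is known as a gene that macrophages and microglia switch on when activated. Microglia are the resident macrophages of the brain. Astrocytes clear glutamate and potassium and couple to vessels, endothelial cells carry the tight junctions and transporters of the blood-brain barrier, and oligodendrocytes wrap axons in myelin. The naive pair asks whether these resident cells differ between the genotypes before any tumour is present.

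Acod1 itself, at chromosome 14, 103046977 to 103056573 on the plus strand of GRCm38, had 0 UMIs in the kept cells of either naive library. A count of 0 allows up to 1.83 CPM (UMIs scaled to a library or class sum of 1000000) in WT and 1.96 CPM in KO. Over all 3000 barcodes of each table it had 2 UMIs in WT and 0 in KO, so its own level does not check the genotype labels here. Of the genes beside it, 2 are given here. In microglia Kctd12, on the minus strand next to Acod1, had 228 UMIs in WT and 347 in KO (log2 ratio of KO over WT and its interval: 0.31, 0.07 to 0.56), and Mycbp2, an E3 ubiquitin ligase, had 122 UMIs in WT and 126 in KO (-0.25, -0.62 to 0.13).

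The naive libraries were alike in depth. The tables held 3137417 UMIs in WT and 2885345 in KO, of which 1639267 and 1530506 lay in the kept cells, and the median cell had 2607.5 UMIs and 1404.5 genes in WT against 2680 UMIs and 1462.5 genes in KO. The barcode of rank 1000 had 855 UMIs in WT and 715 in KO, and 95 and 57 barcodes fell just short with 900 to 999 genes, against 67 and 66 kept cells with 1000 to 1099 genes. Kept cells of the 2 libraries shared 1 barcode sequence, and no pair among the 28 pairs of libraries shared more than 2. Xist had 1 and 0 UMIs and Y-linked genes 484 and 420 UMIs, the pattern of male cells in both pools. The study lists the WT early and KO intermediate tumour mice as female. Their libraries had 1328 and 824 UMIs of Xist and 2 Y-linked UMIs each.

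All 4 classes were present in both genotypes. Of the cells with a class, microglia made up 21.7% in WT (94 of 434 cells, 17.9% to 25.8%) and 26.2% in KO (113 of 432 cells, 22.1% to 30.6%), a difference of 4.50 percentage points (-1.34 to 10.3). Astrocytes were 38.9% in WT (169 cells) and 35.4% in KO (153 cells), which is -3.52 points (-10.1 to 3.07). Endothelial cells were 21.0% (91 cells) and 23.4% (101 cells), a difference of 2.41 points (-3.28 to 8.09). Oligodendrocytes were 18.4% (80 cells) and 15.0% (65 cells), which is -3.39 points (-8.51 to 1.75). The interval of each of the 4 differences contains 0, so no shift between these 4 classes was detectable with these cell numbers, and the bounds give the shifts that the counts allow. These shares count every cell placed in a class, including those led by genes of another cell type, which are described below. A further 20 WT and 22 KO cells had no single leading class.

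**Figure D1:**
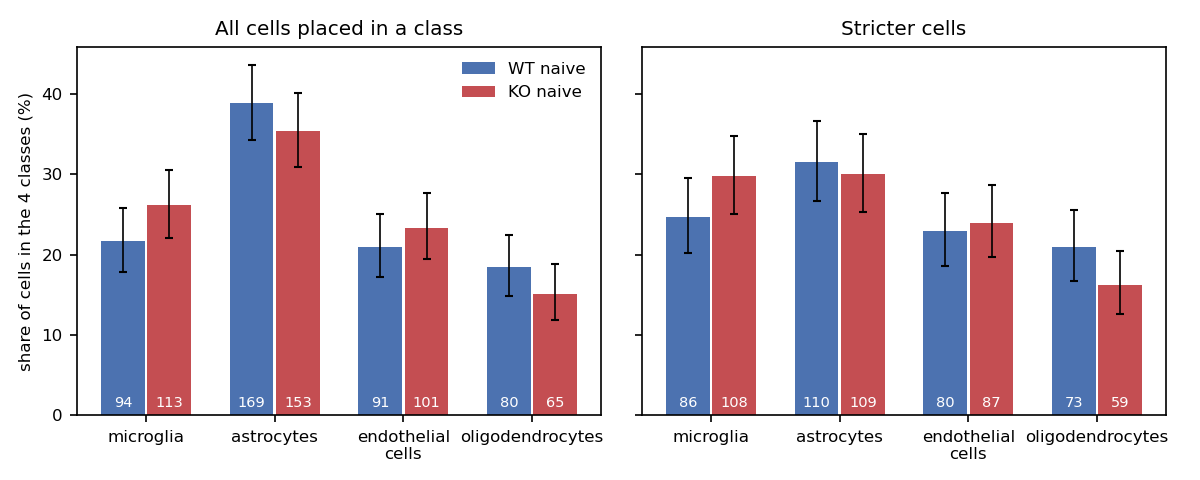
Share of cells in each of the 4 classes (y axis, %) for WT naive and KO naive, for all cells of the classes and for the stricter cells; bars are shares and error lines exact 95% binomial intervals. The bars of both genotypes lie within each other's error lines or close to them in every class, with microglia at 21.7% and 26.2% and oligodendrocytes at 18.4% and 15.0%.

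The class names were checked against 6 further markers each and against lists for other cell types of the brain. The further markers of each class were detected in full in their own class in both libraries, at 16542 and 20261 CPM for microglia, 8970 and 12590 CPM for astrocytes, 16309 and 16576 CPM for endothelial cells and 75002 and 76296 CPM for oligodendrocytes. The astrocyte class was the least pure. In 58 of its 169 WT cells and 40 of its 153 KO cells the UMIs of another cell type list exceeded the astrocyte markers, and these cells held 54.8% of the UMIs of the class in WT and 37.6% in KO. They were led by ciliated ependyma, the cells that line the ventricles (28 WT and 15 KO cells), choroid plexus epithelium, which makes cerebrospinal fluid (11 and 11), and neuroblasts (10 and 5). In the microglia class such cells were 6 in WT, 2 of them led by border macrophage markers, and 1 in KO, with 11.8% and 1.46% of the UMIs. The endothelial class held 10 and 11, of which 2 WT cells were led by red blood cell genes and 3 WT and 8 KO cells by genes of mural cells or fibroblasts, and the oligodendrocyte class held 4 and 4. Oligodendrocyte precursors and lymphocytes led in 0 cells of either library, which allows a share of up to 0.661% of the 454 cells each.

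Values are therefore given for all cells of a class and, where so named, for stricter cells. In the stricter cells those led by another type were left out, as were cells with under 3 UMIs of their class markers or under 2 times the next class. This set was defined after the data had been seen, and it held 86 WT and 108 KO microglia, 110 and 109 astrocytes, 80 and 87 endothelial cells, and 73 and 59 oligodendrocytes. A doublet caller marked 10 WT cells (2.20%) and 35 KO cells (7.71%), 22 of the latter in the astrocyte class.

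**Figure D2:**
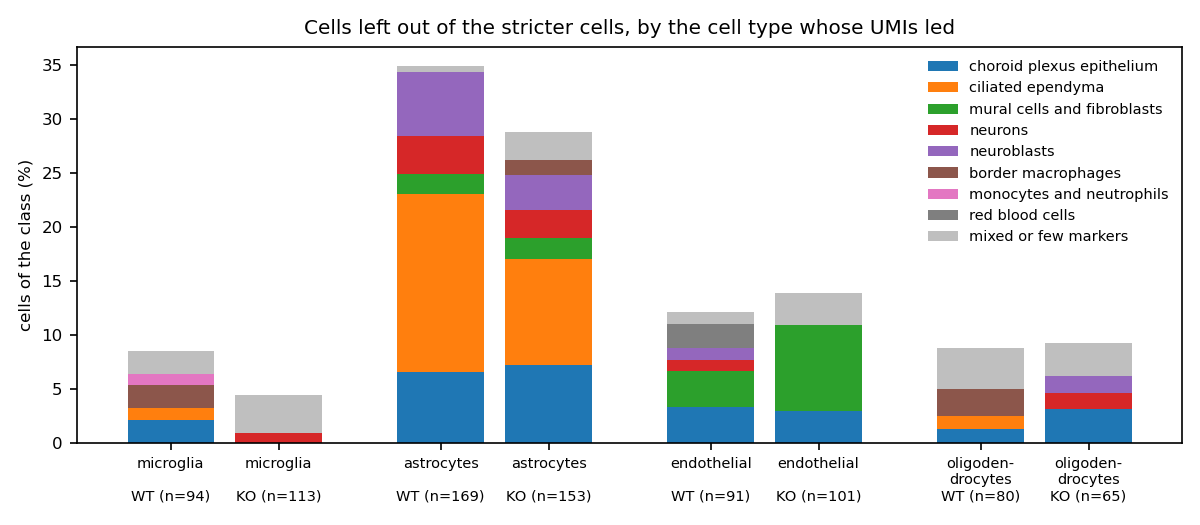
Share of each class (y axis, % of its cells) in WT naive and KO naive that was left out of the stricter cells, coloured by the cell type whose UMIs led. The astrocyte class lost the most cells in both genotypes, 58 WT and 40 KO cells of other types, mainly ependyma and choroid plexus.

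UMIs were summed over the cells of a class, and genes with at least 50 UMIs in both libraries together were compared as the log2 ratio of KO over WT CPM. The median ratio lay between -0.01 and 0.05 in every class and in both sets of cells. In microglia 31 of 2015 genes (1.54%) were at least 2-fold higher and 39 (1.94%) at least 2-fold lower in KO; in the stricter cells these were 30 (1.68%) and 24 (1.34%) of 1788. In astrocytes 95 of 5157 genes (1.84%) were higher and 135 (2.62%) lower, and in the stricter cells 55 (2.33%) and 19 (0.804%) of 2363. In endothelial cells 64 of 2854 (2.24%) were higher and 43 (1.51%) lower, and in the stricter cells 46 (1.81%) and 34 (1.34%) of 2535. In oligodendrocytes 33 of 1914 (1.72%) were higher and 28 (1.46%) lower, against 34 (2.11%) and 17 (1.05%) of 1613 in the stricter cells; with TMM factors the oligodendrocyte counts in all cells were 27 and 35.

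Many more genes had an interval clear of 0, since abundant genes have narrow intervals. In microglia the interval lay above 0 for 9.98% and below 0 for 7.74% of genes (9.62% and 7.49% in the stricter cells), in astrocytes for 10.7% and 10.7% (10.1% and 5.54%), in endothelial cells for 9.85% and 8.86% (9.7% and 8.76%) and in oligodendrocytes for 9.56% and 6.74% (8.99% and 6.57%). The counts of list members below are to be read beside these shares of all genes.

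Many of these genes rested on few cells. Leaving out the 1 cell with the most UMIs of a gene and, separately, taking the stricter cells, 10 of the 31 higher and 8 of the 39 lower genes of microglia stayed past 2-fold under both. In endothelial cells 29 of 64 and 17 of 43 did, and in oligodendrocytes 9 of 33 and 9 of 28. In astrocytes 7 of 95 higher and 0 of 135 lower genes did, and only 3 of those 135 genes reached 50 UMIs in the stricter cells. No gene measured in all 4 classes was past 2-fold in the same direction in all 4, among 996 genes in all cells and 742 in the stricter cells.

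**Figure D3:**
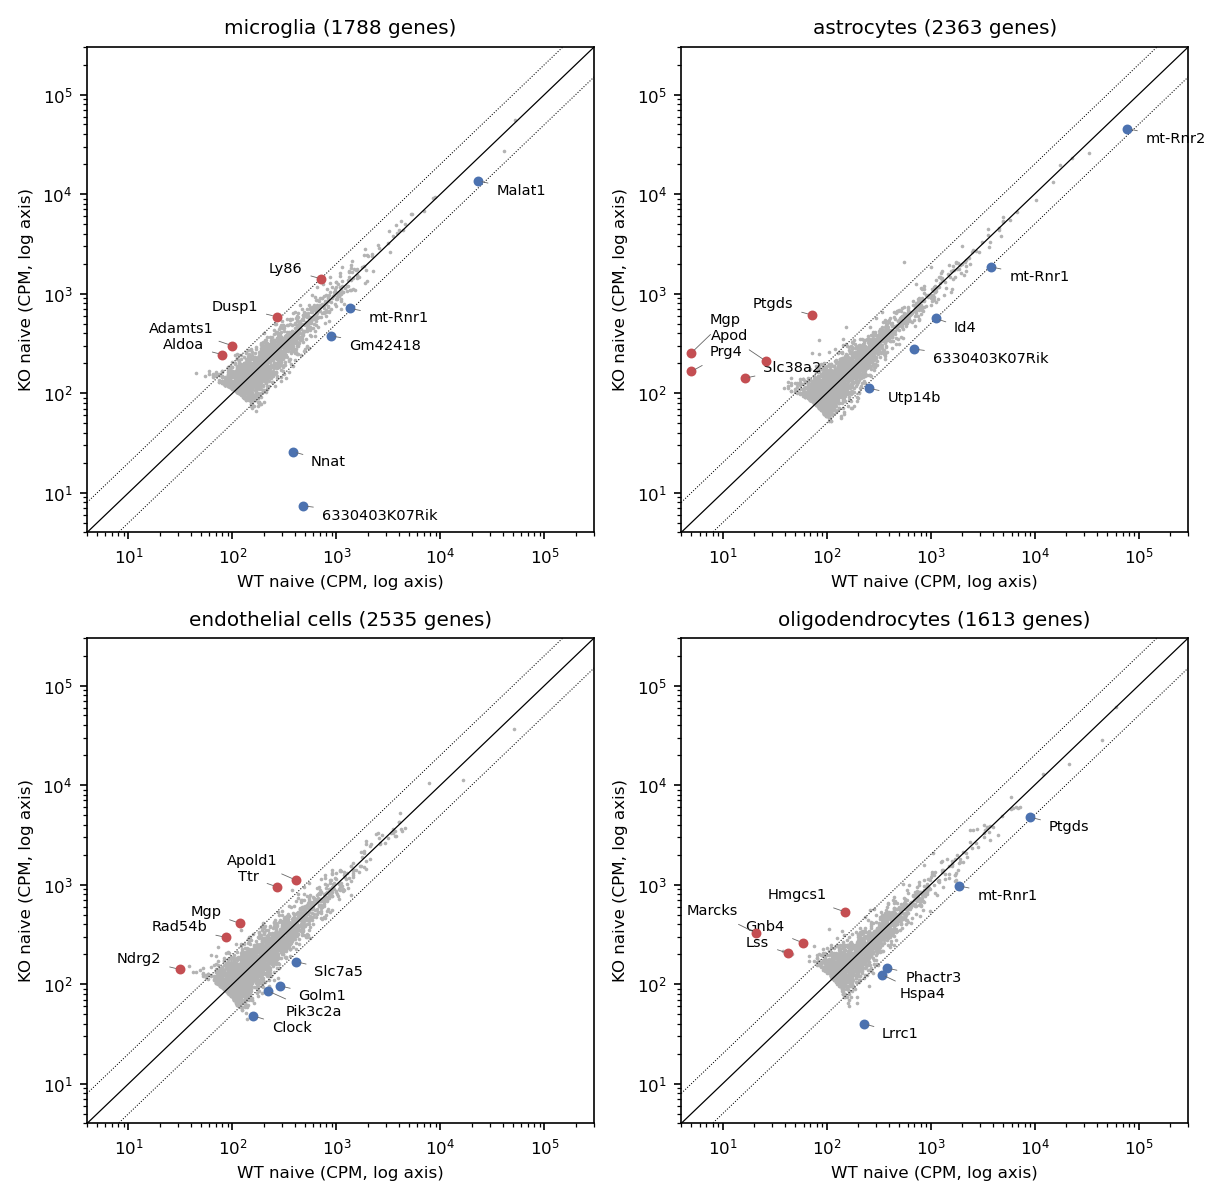
CPM of each gene in WT naive (x axis, log scale) and KO naive (y axis, log scale) in the stricter cells of each class, 1 point per gene with at least 50 UMIs. The solid line marks equal levels and the dotted lines a 2-fold difference; most genes lie between the dotted lines, and the named genes (red higher, blue lower in KO) are genes of the text that were among those with the highest and lowest ratio bounds.

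In microglia, Ly86 stood higher in KO, with the narrowest interval of the 5 highest genes. Ly86 encodes MD-1, a secreted partner of the Toll-like receptor homologue RP105. It had 153 UMIs in WT and 393 in KO, that is 652 CPM (553 to 764) in WT and 1368 CPM (1236 to 1510) in KO, a log2 ratio of 1.07, 0.80 to 1.35. In the stricter cells the ratio was 0.99, and Ly86 was found in 69 of 86 WT cells (80.2%) and 101 of 108 KO cells (93.5%). After thinning every cell to 1500 UMIs the shares were 66.3% and 85.2%, against at most 3.49% in astrocytes, endothelial cells or oligodendrocytes of either library, classes that should lack it. Median depth of the stricter microglia was 2271.5 UMIs in WT and 2315 in KO.

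Other genes on the higher side in microglia were less abundant. Ctnnb1, the beta-catenin gene, had 13 UMIs in WT and 49 in KO (log2 1.62, 0.72 to 2.63) in 13 WT and 39 KO cells. It was thus spread over many KO cells, with at most 3 UMIs in any 1 cell. Aldoa, a glycolytic aldolase, had 29 and 73 UMIs (1.04, 0.40 to 1.71; 1.61 in the stricter cells). Adamts1, a secreted protease, had 26 and 82 UMIs (1.37, 0.71 to 2.06), of which 21 UMIs were in 1 KO cell. In the stricter microglia the 6 further oligodendrocyte markers stood at 415 CPM in WT and 814 CPM in KO.

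The lowest genes by ratio in microglia had most of their WT UMIs in few cells. H2-Aa, H2-Ab1 and Cd74, which build and load MHC class II, had 59 and 1 UMIs, 72 and 4 UMIs and 91 and 8 UMIs, all WT UMIs lying in 3 to 5 of 94 cells. In the class as a whole the border macrophage markers stood at 575 CPM in WT and were at 0 in KO, and in the stricter cells H2-Aa had 25 and 1 UMIs, 24 of them in 1 WT cell. Nnat, a gene of neurons and ependyma, had 105 and 9 UMIs with 58 in 1 WT cell, and 6330403K07Rik had 98 and 4 UMIs with 93 in 1 WT cell; without that cell its ratio was -0.66. In the stricter cells lower genes with many UMIs were nuclear and mitochondrial non-coding RNAs, Malat1 (4576 and 3680 UMIs, -0.75, -0.81 to -0.69), mt-Rnr1 (272 and 192 UMIs, -0.94, -1.21 to -0.67) and Gm42418, which overlaps ribosomal RNA sequence (176 and 102 UMIs, -1.22, -1.59 to -0.86).

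Genes of the homeostatic state of microglia were on the higher side in KO by small amounts. All 30 genes of the list were measured, 29 had a ratio above 0, 22 had an interval above 0, beside 9.98% of all genes of the class, and 0 were past 2-fold, with a median of 0.31 beside 0.03. In the stricter cells 26 of 30 were above 0, 16 with the interval, beside 9.62% of all genes, and the median was 0.18 beside 0.02. These are abundant genes with narrow intervals, at a median of 884.5 UMIs in both libraries together beside 85 over all genes of the class. The list includes the 3 markers that define the class. Lgmn, a lysosomal protease, had 397 and 793 UMIs (0.71, 0.53 to 0.88; 0.56 in the stricter cells), Serinc3 309 and 592 UMIs (0.65, 0.45 to 0.85; 0.58) and Tyrobp, the signalling adaptor of Trem2, 291 and 544 UMIs (0.61, 0.40 to 0.82; 0.47). The 3 chains of complement C1q stood alike, with C1qa at 0.49, C1qb at 0.47 and C1qc at 0.51. Tmem119 was at 0.35, 0.11 to 0.59. Cx3cr1, the fractalkine receptor, was at 0.07, -0.05 to 0.20 and Fcrls at -0.03, -0.24 to 0.18, and both intervals contain 0. Fewer genes of the list were measured in the other classes of stricter cells, 7 in astrocytes, 8 in endothelial cells and 5 in oligodendrocytes. Their medians were 0.49, 0.14 and 0.42, with 7, 5 and 5 genes above 0. In astrocytes and oligodendrocytes 5 and 3 intervals lay above 0, beside 10.1% and 8.99% of all genes, and 0 below. Endothelial cells were mixed, with 1 interval above and 3 below 0, beside 9.7% and 8.76% of all genes. There 1 gene was at least 2-fold lower, beside 1.34% of all genes. The higher side was thus also seen in stricter astrocytes and oligodendrocytes.

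Immediate early genes, which respond within minutes to stimulation and also to tissue dissociation, were mostly on the higher side in KO microglia. Of 20 measured genes 18 had a ratio above 0, 11 with the interval, beside 9.98% of all genes, and the median was 0.42 beside 0.03. The stricter cells had a median of 0.46 beside 0.02, with 17 of 20 above 0, and 2 were past 2-fold higher, beside 1.68% of all genes. Their median was 401 UMIs in both libraries together, beside 85 over all genes. Egr1, a zinc-finger factor, had 154 and 350 UMIs (0.89, 0.62 to 1.18), Zfp36, which degrades cytokine mRNAs, 251 and 525 UMIs (0.77, 0.55 to 1.00), and Dusp1, a phosphatase of MAP kinases, 72 and 165 UMIs (0.90, 0.50 to 1.32). Jun, the most abundant of the AP-1 genes by UMIs, had 1530 and 1943 UMIs and a ratio of 0.05, -0.04 to 0.15, and Fos 0.18, -0.01 to 0.38. The list was thus uneven. In stricter endothelial cells 12 of 17 measured genes were above 0, at a median of 0.39 (0.01 in all cells of the class). Of these 17, 6 intervals lay above and 2 below 0, beside 9.7% and 8.76% of all genes. In stricter astrocytes and oligodendrocytes 4 genes were measured in each, at medians of -0.01 and -0.21.

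Lists tied to itaconate were thinly measured. Of 16 genes of itaconate metabolism and the citric acid cycle 5 reached 50 UMIs in microglia, with a median of 0.21, 3 of 5 above 0 and 0 intervals clear of 0. In stricter microglia 4 reached it, and all 4 had a ratio above 0. Their median was 0.58, beside 0.02 over all genes, and again 0 intervals were clear of 0. Summed over the list there were 225 and 310 UMIs (0.17, -0.08 to 0.42) in all microglia. In the stricter microglia there were 163 and 289 UMIs (0.39, 0.11 to 0.68). The sum was also higher in KO in stricter endothelial cells (0.30, 0.08 to 0.53) and oligodendrocytes (0.31, 0.06 to 0.57). In stricter astrocytes it was at 0.04, -0.10 to 0.18. Among the genes measured in microglia Sdha, a subunit of succinate dehydrogenase, had 24 and 38 UMIs (0.37, -0.40 to 1.17). Of 12 targets of Nrf2, a factor that itaconate is known to activate, 2 were measured, and their intervals contain 0. Of 16 chemokines and cytokines 3 were measured: Ccl3 had 162 and 284 UMIs (0.52, 0.23 to 0.81) and Ccl4 266 and 348 UMIs (0.10, -0.14 to 0.33), while Il1b had 1 and 0 UMIs and Tnf 3 and 6. Of 18 disease-associated genes 11 were measured with a median of 0.11. Apoe, the lipid carrier, had 644 and 398 UMIs (-0.99, -1.17 to -0.80; -0.55 in the stricter cells) and Lyz2 124 and 65 UMIs (-1.22, -1.68 to -0.78; -0.46), and 42 of the WT UMIs of Lyz2 were in 1 cell.

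**Figure D4:**
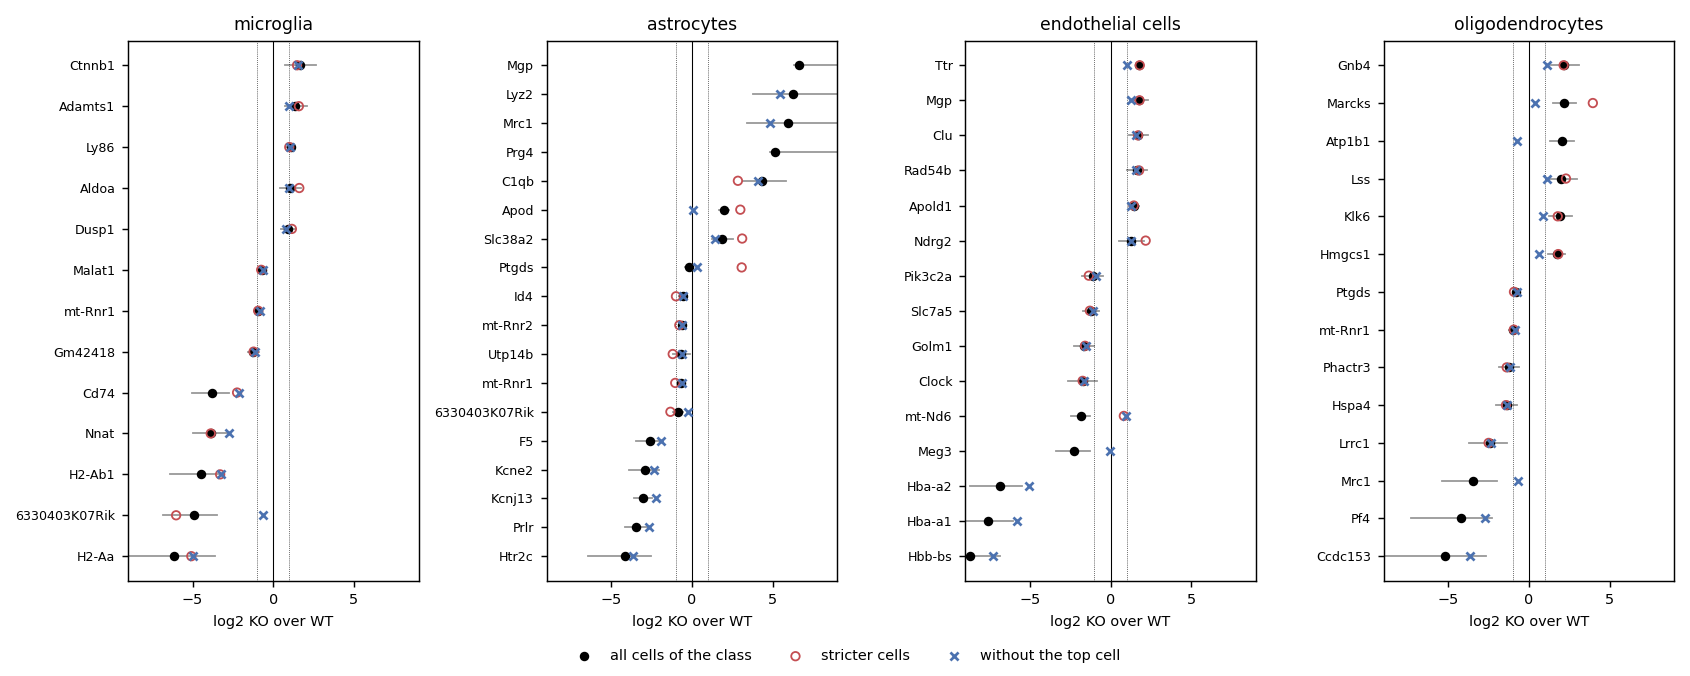
Log2 ratio of KO over WT (x axis) for genes of the text that were among the highest and lowest of each class. Black points are all cells (with the 95% counting interval) and red rings the stricter cells, where at least 20 UMIs were left. Blue crosses leave out the cell with the most UMIs of the gene in the library with the higher CPM. Dotted lines mark 2-fold; for Ly86, Apold1, Rad54b, Golm1, Clock, Lrrc1 and Hspa4 the 3 points lie close together, and for Atp1b1 and mt-Nd6 they lie on opposite sides of 0.

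In endothelial cells, the genes that stayed past 2-fold under each of these views included Apold1 and Rad54b on the higher side and Golm1, Clock and Slc7a5 on the lower side in KO. Apold1, an immediate-early-type gene of vascular endothelium, had 121 UMIs in WT and 339 in KO, that is 371 CPM (308 to 443) in WT and 1007 CPM (902 to 1120) in KO (log2 1.44, 1.14 to 1.75). It was found in 39 of 80 WT and 57 of 87 KO stricter cells, 31.6% and 53.5% after thinning, against at most 0.926% in any other class, and median depth of these cells was 2409 UMIs in WT and 2581 in KO. Rad54b, a DNA repair helicase by its family, had 28 and 89 UMIs (1.62, 0.99 to 2.29) in 16 of 80 and 41 of 87 stricter cells. Both rested on many cells, with at most 44 and 7 UMIs in any 1 KO cell. In the last 1000 barcodes of each table by UMIs, which held at most 367 UMIs each in WT and 359 in KO, Rad54b had 1 UMI in WT and 7 in KO.

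Arterial genes stood on the higher side in KO endothelial cells. Of 7 genes 5 were measured, all 5 had a ratio above 0, 3 with the interval, beside 9.85% of all genes, and the median was 0.99 (0.95 in the stricter cells) beside -0.01. Summed over the list there were 305 and 626 UMIs (0.99, 0.79 to 1.19). Gkn3, a marker of brain arteries, had 158 UMIs in WT and 324 in KO (0.99, 0.71 to 1.27) and was found in 14 of 80 and 26 of 87 stricter cells. Mgp, matrix Gla protein of large vessels, had 36 and 124 UMIs (1.74, 1.19 to 2.32), Bmx, an arterial kinase, 20 and 42 UMIs (1.02, 0.22 to 1.87) and Hey1, a Notch target, 24 and 40 UMIs (0.69, -0.07 to 1.48). Sema3g had 39 and 41 UMIs (0.03, -0.64 to 0.70). Of 7 venous genes 2 were measured, Vcam1 with 61 and 40 UMIs (-0.66, -1.27 to -0.06) and Slc38a5 with 37 and 36 UMIs (-0.09, -0.79 to 0.62). Markers of mural cells and fibroblasts stood at 1444 CPM in WT and 2530 CPM in KO in this class and at 1190 and 1651 CPM in the stricter cells. Their part in the values was not tested.

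Blood-brain barrier genes differed in both directions. All 24 were measured, 11 had a ratio above 0, 5 intervals lay above and 5 below 0, beside 9.85% and 8.86% of all genes, and the median was -0.05 (-0.06 in the stricter cells). Slc7a5, the LAT1 carrier of large neutral amino acids, was the 1 member past 2-fold, beside 1.51% of all genes at least 2-fold lower. It had 121 UMIs in WT and 54 in KO (-1.21, -1.70 to -0.74), in 50 of 80 and 32 of 87 stricter cells. Tfrc, the transferrin receptor, had 160 and 102 UMIs (-0.70, -1.07 to -0.33) and Tjp1, the junction scaffold ZO-1, 246 and 161 UMIs (-0.66, -0.95 to -0.37). On the other side, Bsg, basigin, had 2365 and 3359 UMIs (0.46, 0.38 to 0.54), and Cldn5, the main claudin of the barrier and a marker that defined the class, 753 and 1013 UMIs (0.38, 0.24 to 0.52). The efflux pump Abcb1a (-0.06, -0.19 to 0.07) and the organic anion carrier Slco1a4 (-0.07, -0.19 to 0.06) had intervals that contain 0.

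Other endothelial genes on the lower side were Golm1, a Golgi membrane protein, with 86 UMIs in WT and 29 in KO (-1.61, -2.28 to -0.99), and Clock, the partner of Bmal1 in the circadian clock, with 50 and 16 UMIs (-1.69, -2.60 to -0.85). Golm1 was found in 41 of 80 and 21 of 87 stricter cells and Clock in 26 and 11. The same gene Golm1, which microglia also express, was found in 82 of 86 WT and 105 of 108 KO stricter microglia. Of 15 clock genes 4 were measured in endothelial cells, all 4 with a ratio below 0 and 3 with the interval, beside 8.86% of all genes, at a median of -0.81. Only 3 were measured in the stricter cells, 1 with its interval below 0, beside 8.76%, at a median of -0.64. Summed over the list there were 271 and 167 UMIs (-0.74, -1.03 to -0.46) in all cells and 234 and 147 UMIs (-0.68, -0.99 to -0.38) in the stricter cells. Nr1d1 had 41 and 25 UMIs (-0.76, -1.54 to -0.01) and Dbp 36 and 30 UMIs (-0.31, -1.06 to 0.43). The hour at which the brains were taken is not given in the sources used here. Pik3c2a, a lipid kinase, had 66 and 32 UMIs (-1.09, -1.75 to -0.46). Among 12 measured interferon-stimulated genes the median was 0.00 (0.08 over 10 genes in the stricter cells), and Isg15 had 23 and 47 UMIs (0.98, 0.24 to 1.77).

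Among the highest and lowest ratios of the endothelial class were genes that mark other cells. Haemoglobin genes Hbb-bs (814 and 2 UMIs), Hba-a1 (550 and 3 UMIs) and Hba-a2 (439 and 4 UMIs) came from 2 or 3 WT cells. Hba-a1 and Hba-a2 are near-identical copies whose reads the counting may have split. Ttr, the transthyretin of the choroid plexus, had 1019 and 3596 UMIs (1.77, 1.67 to 1.87), with 522 and 1470 UMIs in the top cell of each library, and 78 and 276 UMIs in the stricter cells. Clu had 34 and 116 UMIs (1.72, 1.16 to 2.32) and Ndrg2, an astrocyte gene, 9 and 41 UMIs in the stricter cells (2.18, 1.11 to 3.40). Among the stricter endothelial cells the list of astrocyte transport genes had 468 and 809 UMIs summed (0.78, 0.61 to 0.95), Slc1a2 among them (55 and 111 UMIs). mt-Nd6 had 110 and 32 UMIs and Meg3 46 and 10 UMIs, of which 94 and 36 lay in 1 WT cell for each gene; without that cell the ratios were 0.94 and -0.06.

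In astrocytes, the direction of the class's own genes depended on which cells were counted. All 14 genes of astrocyte transport and coupling had a ratio above 0 in all cells of the class, 13 with the interval, beside 10.7% of all genes, at a median of 0.32, but in the stricter cells 4 of 14 were above 0 and the median was -0.04. Slc1a2, the main glutamate transporter, had 3312 UMIs in WT and 3187 in KO (0.21, 0.14 to 0.28) in all cells and 3144 and 2968 UMIs (-0.23, -0.31 to -0.16) in the stricter cells. Gja1, connexin 43, went from 0.11 to -0.33 and Aqp4, the water channel of astrocyte endfeet, from 0.17 to -0.23. These 3 are the markers that defined the class. Slc6a11, a GABA transporter, was on the higher side in both, at 0.75, 0.45 to 1.04 and 0.34, 0.04 to 0.64. So was Mt3, a brain metallothionein, with 310 and 626 UMIs in the stricter cells (0.86, 0.66 to 1.06), beside Mt1 at 0.10 and Mt2 at 0.01. Gfap, the filament protein of reactive astrocytes, had 45 and 29 UMIs in the stricter cells (-0.78, -1.51 to -0.08; -0.09, -0.76 to 0.57 in all cells).

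Among the stricter astrocytes, Id4, an inhibitor of differentiation factors, was on the lower side in KO with 341 UMIs in WT and 191 in KO (-0.99, -1.25 to -0.73). It was found in 89 of 110 WT cells (80.9%) and 69 of 109 KO cells (63.3%), and in 68.2% and 51.9% after thinning, against at most 3.39% in any other class after thinning. Median depth of these cells was 2586 UMIs in WT and 2843 in KO. Utp14b, a factor of ribosome assembly, had 78 and 38 UMIs (-1.19, -1.79 to -0.61) in 47 and 20 cells. In all cells of the class both lay nearer 0, Id4 at -0.56 and Utp14b at -0.66. 6330403K07Rik had 213 and 94 UMIs, with 91 UMIs in 1 WT cell and 57 in 1 KO cell. Its ratio in all cells was -0.87, and -0.24 with only that WT cell left out and the KO cell kept. On the higher side stood Ptgds, prostaglandin D synthase, with 22 and 207 UMIs in the stricter cells, 108 of them in 1 KO cell. So did Apod, apolipoprotein D, with 8 and 71 UMIs, 15 of them in 1 KO cell. Slc38a2, an amino acid carrier, had 5 and 48 UMIs, 23 of them in 1 KO cell. It was found in 9 of 109 KO cells and reached the minimum of UMIs per gene mainly through the KO library. In all cells of the class Ptgds was at -0.19, -0.41 to 0.03.

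The leading genes of the whole astrocyte class marked other cells. Prlr (275 and 21 UMIs), Htr2c (64 and 3 UMIs), Kcnj13 (303 and 31 UMIs), Kcne2 (108 and 12 UMIs) and F5 (109 and 15 UMIs), genes of choroid plexus epithelium, were at the low end and had at most 3 UMIs per library in the stricter cells. The choroid plexus markers stood at 2392 CPM in WT and 839 CPM in KO in all cells and at 42.6 and 130 CPM in the stricter cells. At the high end were Mgp (0 and 245 UMIs, in 7 KO cells) and Prg4 (0 and 88 UMIs, in 5 KO cells), genes of fibroblasts and meninges. Of these UMIs 158 and 41 lay in the top KO cell of each gene. With the 0 UMIs of WT replaced by the floor of 3 UMIs, the 2 genes were 98.2-fold and 35.3-fold higher in KO. Their counting intervals reach below these values. Lyz2 (1 and 65 UMIs), Mrc1 (1 and 52 UMIs) and C1qb (6 and 101 UMIs), genes of macrophages and microglia, followed. Ctss, a lysosomal protease of microglia, had 24 and 219 UMIs. These genes reached the minimum of 50 UMIs mainly through the KO library. They are included in the 95 higher genes of the class given above. The 6 further microglia markers stood at 113 and 756 CPM in the class and at 187 and 531 CPM in the stricter cells, and with doublets left out C1qb was at 3.16 and P2ry12, with 12 and 78 UMIs in all cells, at 0.23.

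In oligodendrocytes, the myelin programme was close to even between the genotypes. All 28 genes of the list were measured, 16 had a ratio above 0, 10 intervals lay above and 6 below 0, beside 9.56% and 6.74% of all genes, and the median was 0.03 (-0.03 in the stricter cells). Mbp, a major myelin protein, had 1762 UMIs in WT and 1206 in KO (-0.16, -0.27 to -0.06). Mag (1515 and 1565 UMIs, 0.43, 0.33 to 0.53), an adhesion molecule and class marker, Cldn11 (0.49, 0.33 to 0.64), the myelin tight junction claudin, and Trf (0.42, 0.27 to 0.56), transferrin, stood higher in KO. Mal (-0.35, -0.50 to -0.20) and the alarmin Il33 (-0.43, -0.66 to -0.21) stood lower. The 1 member past 2-fold, beside 1.72% of all genes, was Klk6, a protease, with 25 and 73 UMIs, 39 of them in 1 KO cell.

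Among the 9 genes that stayed at least 2-fold lower in KO oligodendrocytes without their top cell and in the stricter cells were Lrrc1, Hspa4 and Phactr3. Lrrc1, a scaffold protein of the LAP family, had 56 UMIs in WT and 8 in KO, that is 195 CPM (147 to 253) in WT and 36.3 CPM (15.7 to 71.6) in KO (log2 -2.42, -3.70 to -1.35). It was found in 35 of 73 WT (47.9%) and 8 of 59 KO (13.6%) stricter cells, in 28.8% and 8.47% after thinning, and in at most 7.27% of cells of any other class before thinning. Median depth of these cells was 2934 UMIs in WT and 2860 in KO. Hspa4, a chaperone of the HSP110 family, had 99 and 29 UMIs (-1.39, -2.04 to -0.78) in 44 and 17 stricter cells. Its relative Hsph1 had 78 and 27 UMIs (-1.15, -1.84 to -0.50). Hspa4 was also lower in KO in stricter endothelial cells (356 and 223 CPM) and astrocytes (193 and 130 CPM). In stricter microglia it was at 215 and 244 CPM. Over the 8 heat shock genes measured in oligodendrocytes the median was -0.30, with 6 of 8 below 0 (-0.35 and 5 of 8 in the stricter cells). The median over all genes was 0.01 (0.00 in the stricter cells). Intervals lay below 0 for 3 of the 8 in either set of cells, beside 6.74% and 6.57% of all genes. Phactr3, a regulator of protein phosphatase and actin, had 93 and 30 UMIs (-1.25, -1.89 to -0.64). Ptgds, an enzyme that varies strongly between oligodendrocyte subtypes, was less than 2-fold lower and had 2324 and 1021 UMIs (-0.80, -0.91 to -0.70), in 67 of 73 and 43 of 59 stricter cells. It thus stood lower in KO oligodendrocytes and higher in KO stricter astrocytes.

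Genes of cholesterol synthesis stood higher in KO oligodendrocytes, and much of this lay in 1 cell. Of 17 genes 9 were measured, 8 had a ratio above 0, 4 were past 2-fold higher, beside 1.72% of all genes, and the median was 0.43. Of the 9, 7 were above 0 in the stricter cells and 4 past 2-fold, beside 2.11%, at a median of 0.36. Over the whole list there were 1243 and 1327 UMIs (0.48, 0.37 to 0.59). Among the 4 were Hmgcs1, at the entry of the pathway, with 44 and 110 UMIs (1.71, 1.19 to 2.24), Lss, lanosterol synthase, 14 and 42 UMIs (1.97, 1.07 to 2.96) and Msmo1, a sterol oxidase, 41 and 81 UMIs (1.37, 0.81 to 1.95). A single KO cell with 16580 UMIs and 4703 genes, which held 7.53% of the UMIs of the class, gave 63, 21 and 25 of the UMIs of these 3 genes. Without it the ratios were 0.59, 1.08 and 0.95. Hmgcs1 was seen in 32 WT and 23 KO cells. The same cell held 55 of the UMIs of Marcks (22 and 75 UMIs) and 29 of Gnb4 (15 and 52 UMIs). Atp1b1 (22 and 69 UMIs) had 59 UMIs in another KO cell and a ratio of -0.74 without it.

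At the low end of the whole oligodendrocyte class, Pf4 (49 and 2 UMIs) and Mrc1 (57 and 4 UMIs), genes of border macrophages, and Ccdc153 (49 and 1 UMIs), a gene of cilia, each came from 2 WT cells. The border macrophage markers stood at 473 CPM in WT and 36.3 CPM in KO, and at 0 and 40.0 CPM in the stricter cells.

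Some RNAs differed in the same direction in all 4 classes of stricter cells without reaching 2-fold in all of them. Intervals lay below 0 in all 4 classes for 4 genes, among them Malat1 (-0.75 in microglia, -0.38 in astrocytes, -0.55 in endothelial cells and -0.40 in oligodendrocytes), mt-Rnr1 (-0.94, -1.03, -0.42 and -0.95) and mt-Rnr2 (-0.60, -0.78, -0.48 and -0.66). They lay above 0 in all 4 for 12 genes. These included the ribosomal protein features Rpl34, Rpl39, Rpl41 and Rpl31-ps8, the mitochondrial mRNAs mt-Cytb and mt-Nd1, and Bsg, Fth1, Gm4149, H3f3b and Ttr. Thus the mitochondrial ribosomal RNAs and the mitochondrial mRNAs named here stood on opposite sides, with mt-Nd1 at 0.34, 0.58, 0.52 and 0.55. In the last 1000 barcodes of each table Malat1 was at -0.08, mt-Rnr1 at -0.04, mt-Rnr2 at 0.28 and Ttr at 0.33, and their part in the cell values was not tested.

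Genes of cytosolic ribosomal proteins were on the higher side in every class of stricter cells, with medians of 0.33 in microglia (54 of 64 measured genes above 0), 0.65 in astrocytes (51 of 51), 0.40 in endothelial cells (67 of 80) and 0.12 in oligodendrocytes (37 of 50). The medians over all genes, in the same order of classes, were 0.02, 0.05, -0.01 and 0.00. Intervals of ribosomal protein genes lay above 0 for 19, 31, 38 and 7, beside 9.62%, 10.1%, 9.7% and 8.99% of all genes. They lay below 0 for 0, 0, 2 and 1. Rpl37 in endothelial cells had 39 and 111 UMIs (1.46, 0.92 to 2.03). Many of these genes have processed pseudogenes with near-identical sequence, so single members such as Rpl31-ps8 are uncertain. Median genes per cell after thinning to 1500 UMIs were also slightly higher in KO in each class, at 936.5 and 950 in microglia, 910 and 952.5 in astrocytes, 1019 and 1029 in endothelial cells and 905 and 934.5 in oligodendrocytes.

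**Figure D5:**
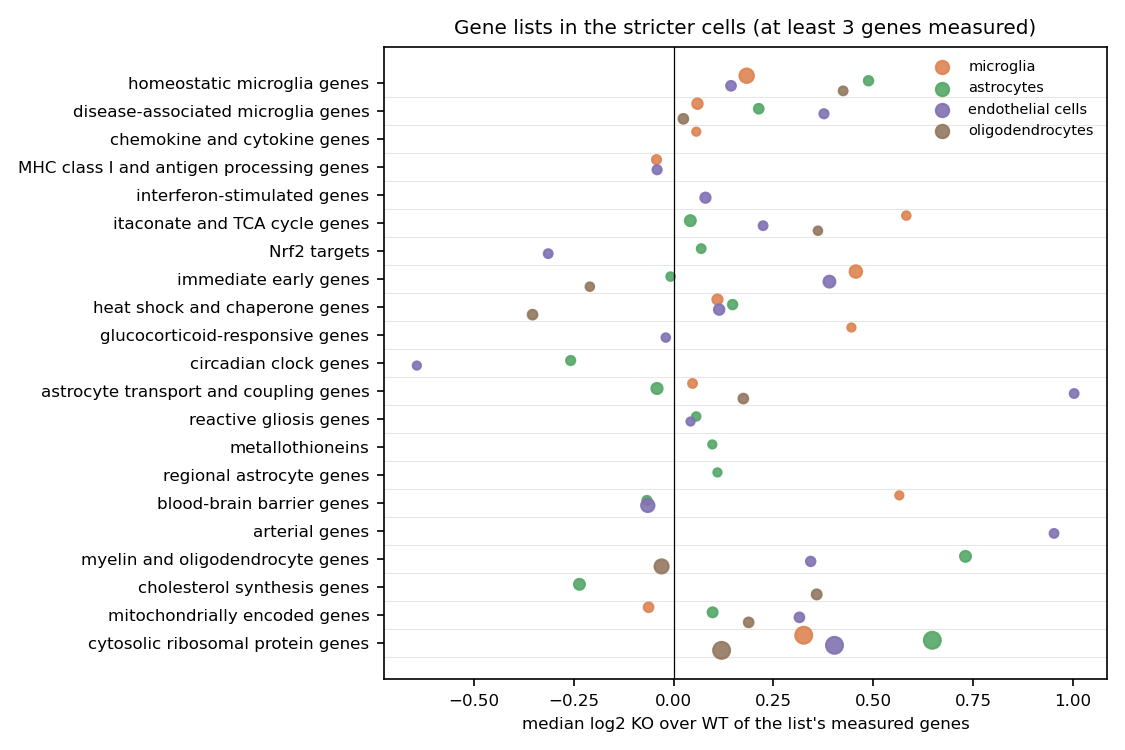
Median log2 ratio of KO over WT (x axis) of the measured genes of each list in the stricter cells, coloured by class, with larger points for more measured genes. Ribosomal protein genes lie above 0 in all 4 classes, homeostatic microglia genes at 0.18 in microglia, arterial genes at 0.95 and clock genes at -0.64 in endothelial cells, and myelin genes at -0.03 in oligodendrocytes.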

How the data were processed

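Brain cells were profiled by Drop-seq, in which a droplet joins a cell with a barcoded bead and each captured 3' transcript end carries a UMI. The authors deposited raw UMI counts per gene and barcode, 3000 barcodes per library. Per the submitters' processing notes, bcl2fastq 2.0, STAR and GRCm38 (mm10) were used, followed by the Drop-seq pipeline per the methods. The annotation and any doublet removal are not given in the sources used here. Counting by UMI limits the effect of amplification, but free RNA and mixed cells remain in the counts.

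From these counts, the top 1000 barcodes of each library by UMI number were taken, genes found in at least 30 of the 8000 barcodes of the 8 libraries were kept (18473 of 32502), and cells with at least 1000 such genes were used, following the study's filters. Classes, summed UMIs, CPM and log2 ratios were computed with Python 3.11.15, numpy 2.4.6, scipy 1.17.1 and pandas 2.3.3. Intervals are exact at 95% (Poisson for CPM, Clopper-Pearson for shares and for the KO part of a gene's UMIs) and the interval of a difference of shares joins the limits of both shares by square-and-add. They cover counting error only. Genes needed 50 UMIs in both libraries together, a difference of 2-fold was counted, and 3 UMIs served as the floor of a library at 0. No test was run, since each genotype has 1 library, and the ratio code was tested on simulated data.

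The named genes are the class markers, the 5 highest and 5 lowest genes of each class by the interval bound nearest 0, list members past 2-fold, and Acod1 with its neighbours; other list members, cell counts and genes of all 4 classes were added after their values were seen. Classes, members and gene lists were chosen with earlier results of these data known. Alternatives were TMM factors (edgeR 4.0.16, R 4.3.3), Scrublet doublets (scanpy 1.11.5), other cell and gene filters, other class rules and other weightings. Gene positions are those of GENCODE for GRCm38. Some genes that the rule names are not reported here.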

Additional observations from a re-analysis of the deposited data

How the results depend on the processing

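The 4 differences in class share, recomputed under each alternative setting, gave 28 values in all. Each stayed within the counting interval of the reported value, although that of oligodendrocytes was 0.238 points at a minimum of 500 genes per cell against -3.39. The number of genes past 2-fold depended on the minimum of UMIs per gene. With at least 100 UMIs it was 15 in microglia, 65 in astrocytes, 24 in endothelial cells and 7 in oligodendrocytes, and with at least 20 UMIs 468, 913, 510 and 451, against 70, 230, 107 and 61. Dividing the class sums by their mean over cells gave 114 in microglia and 129 in oligodendrocytes. In astrocytes 87 were left without cells of other types and 74 in the stricter cells, and in endothelial cells the mean of CPM over cells gave 161. Of 771 values of named genes 643 moved by less than their counting interval and 7 of genes past 2-fold changed sign. mt-Nd6 in endothelial cells was at 0.81 without cells of other types, 0.83 in the stricter cells and 0.94 without its top cell. Meg3 in endothelial cells was at 0.54 and Atp1b1 in oligodendrocytes at -0.66 with divided class sums, Atp1b1 at -0.74 without its top cell, and Ttr in endothelial cells at -0.24 with the marker margin. The cause was not tested. No paired analysis was possible because each genotype has 1 naive library. Depth limits these data to abundant genes.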

Other observations

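Cells that belonged to no class were mostly of recognisable other types. Of the 20 WT and 22 KO cells without a single leading class, 19 and 21 were led by a list of another cell type. Choroid plexus epithelium led in 15 WT and 9 KO of them, neurons in 1 and 5, and neuroblasts in 1 and 4. Over all kept cells choroid plexus epithelium led in 32 WT and 25 KO cells, ciliated ependyma in 30 and 15, mural cells or fibroblasts in 8 and 13, neurons in 8 and 11, and neuroblasts in 12 and 10. These are counts of 1 library per genotype and no comparison was run on them.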
